A study of Mus musculus with 9 samples.

Results

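Mast cell genes were followed in bulk RNA-Seq libraries from mouse skin, as a set of 10 genes chosen by name: *Cpa3*, *Cma1*, *Mcpt4*, *Tpsb2*, *Tpsab1*, *Kit*, *Fcer1a*, *Ms4a2*, *Hdc* and *Mrgprb2*. All 10 were found among the 17943 genes of the deposited table by their NCBI gene identifiers. Skin was taken 10 days after the last injection from 5 control mice, which the sample labels call wild-type, and 4 *Supt6*-KO mice. The study describes the controls as *Supt6* fl/fl mice given corn oil and the *Supt6*-KO mice as K14-CreERT; *Supt6* fl/fl mice given tamoxifen in the same oil, each by intraperitoneal injection on consecutive days in the first telogen, the resting phase of the hair cycle, so both groups carry the floxed alleles, and only the *Supt6*-KO mice carry the transgene and received tamoxifen. Deletion, transgene and drug therefore cannot be told apart in this comparison. The K14 promoter drives Cre in basal keratinocytes and not in mast cells, and the *Supt6*-KO skin was taken from lesions. The age in days or weeks, the sex and the strain of the mice are not given in the sources used here.

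The sample labels name the ear as the tissue, whereas the study's methods name dorsal skin. Keratinocyte genes were abundant in every mouse, with a summed level of 29810 to 33230 CPM (counts scaled to library size, as set out below) among controls and of 39410 to 54690 CPM among *Supt6*-KO mice. Of 10 cartilage genes, which mark the ear pinna rather than the back, 9 passed the filter on low counts. *Col2a1*, the main collagen of cartilage, was counted 2419, 1474, 1475, 3313 and 5067 times in the control mice but 101, 119, 111 and 140 times in the *Supt6*-KO group. *Matn1*, another cartilage gene, had 1 count in all 9 mice together. All 9 tested cartilage genes were lower in *Supt6*-KO skin, at a median of -3.35 for the log2 fold change, where 36.8% of all genes tested were lower (54.6% with library totals). The most abundant was *Acan*, the aggrecan of cartilage matrix. Whether the body site, or the share of deep tissue taken, differed between the groups was not tested. Neither can be told apart from the knockout in this comparison. The tissue is called skin in what follows.

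Mast cells of the skin are long-lived tissue cells of the dermis that gather around vessels, nerves and hair follicles. They depend on the receptor tyrosine kinase Kit and its ligand stem cell factor, store proteases, histamine and heparin in granules, and release them when IgE on the high-affinity receptor FcεRI is cross-linked or when cationic peptides bind the receptor Mrgprb2. Several of the 10 genes are also used by other cells. Melanocytes carry Kit, basophils carry FcεRI and make histamine, and neutrophils can express *Hdc*. In whole skin, fewer cells of a type and less RNA per cell cannot be told apart.

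GATA factors are known regulators of mast cell genes, and the upstream sequences of 3 genes that hold the letters AGATAA, a form of the GATA motif, are shown to place the results below. Promoter windows from RefSeq (GRCm38.p6), 250 bases before to 50 bases after the annotated start, were at hand for 8 of the 10 genes. Some genes have more than 1 window (9 for these 8 genes), so genes were counted that hold a motif in any window. AGATAA was found on either strand for 3 of these 8 genes, and for 12.7% of all 27025 genes. Other forms of the GATA motif were not searched for, so the remaining genes may hold them. TATAAA was found for 3 of the 8 (*Cpa3*, *Mcpt4* and *Fcer1a*) and for 15.7% of all genes, and CACGTG, an E-box that Mitf can bind, for 0 of the 8 and for 8.09% of all genes. None of these motifs overlapped another. The capitals below mark AGATAA or its reverse complement TTATCT. Sequences run 5′ to 3′ on the strand of the gene, which is the reverse strand in each case, and only bases upstream of the outermost annotated start of the gene are printed. They cover chr3:20242210-20242431 for *Cpa3*, chr1:173227233-173227479 for *Fcer1a* and chr19:11623791-11623969 for *Ms4a2*, for which 2 more matches lie outside the stretch shown.
Cpa3: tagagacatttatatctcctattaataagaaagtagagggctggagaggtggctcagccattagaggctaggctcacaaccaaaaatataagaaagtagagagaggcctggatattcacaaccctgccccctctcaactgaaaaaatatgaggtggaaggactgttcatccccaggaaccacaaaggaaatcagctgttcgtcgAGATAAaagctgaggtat
Fcer1a: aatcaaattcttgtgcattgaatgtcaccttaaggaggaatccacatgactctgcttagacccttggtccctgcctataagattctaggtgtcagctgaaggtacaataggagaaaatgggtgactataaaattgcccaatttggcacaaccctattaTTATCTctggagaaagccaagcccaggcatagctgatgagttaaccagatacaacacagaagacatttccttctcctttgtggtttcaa
Ms4a2: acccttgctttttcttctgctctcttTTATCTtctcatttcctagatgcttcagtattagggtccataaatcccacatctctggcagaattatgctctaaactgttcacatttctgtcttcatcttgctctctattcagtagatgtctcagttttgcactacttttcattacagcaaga
With TMM scaling *Cpa3* and *Ms4a2* did not pass the test between the groups, and *Fcer1a* changed more than any of the other 9 genes, as described below. A match is a string of letters and was not tested as a binding site.

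Libraries were of similar depth, with 29627334 to 30491190 counts per control mouse and 30597190 to 30967109 counts per *Supt6*-KO mouse. The values are estimated counts, rounded to whole numbers, and CPM here are scaled by edgeR's TMM factors unless library totals are named. These factors lay between 1.198 and 1.315 in the controls and between 0.674 and 0.91 in the *Supt6*-KO mice, so the scaling itself separates the groups. Over the 16426 genes tested, the median log2 fold change with TMM was -0.072, and with library totals, which use no such factor, it was -0.759. Fold changes of the 10 genes are therefore given on both scales, and those of other genes with TMM unless stated. *Supt6*, the targeted gene, stood at 74.5, 56.6, 63.6, 91.1 and 96.7 CPM in controls and at 28.6, 24.1, 21.9 and 28.4 CPM in *Supt6*-KO mice, with no overlap. Its log2 fold change was -1.57 (standard error, SE, 0.18, adjusted p = 1.3e-05 by the quasi-likelihood test of edgeR) and -2.26 with library totals. It was -0.58 (edgeR adjusted p = 0.011) with the correction for transcript length that is described below. *Sdf2* overlaps it in the genome.

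The 10 genes did not move as a block. At an adjusted p under 0.05 in edgeR, 3 of 10 were higher in *Supt6*-KO skin (*Fcer1a*, *Hdc* and *Cma1*), 2 were lower (*Kit* and *Mrgprb2*), and 5 did not pass. Of all genes tested, 34.1% were higher and 36.8% were lower by the same rule (71.0% either way), so the share of mast cell genes called was not above the background in either direction. Their median log2 fold change was 0.11. With library totals 2 of the 10 were higher (*Fcer1a* and *Hdc*) and 4 lower (*Kit*, *Mrgprb2*, *Cpa3* and *Mcpt4*), where 16.9% and 54.6% of all genes were higher and lower (71.5% either way), and the median was -0.59.

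**Figure D1:**
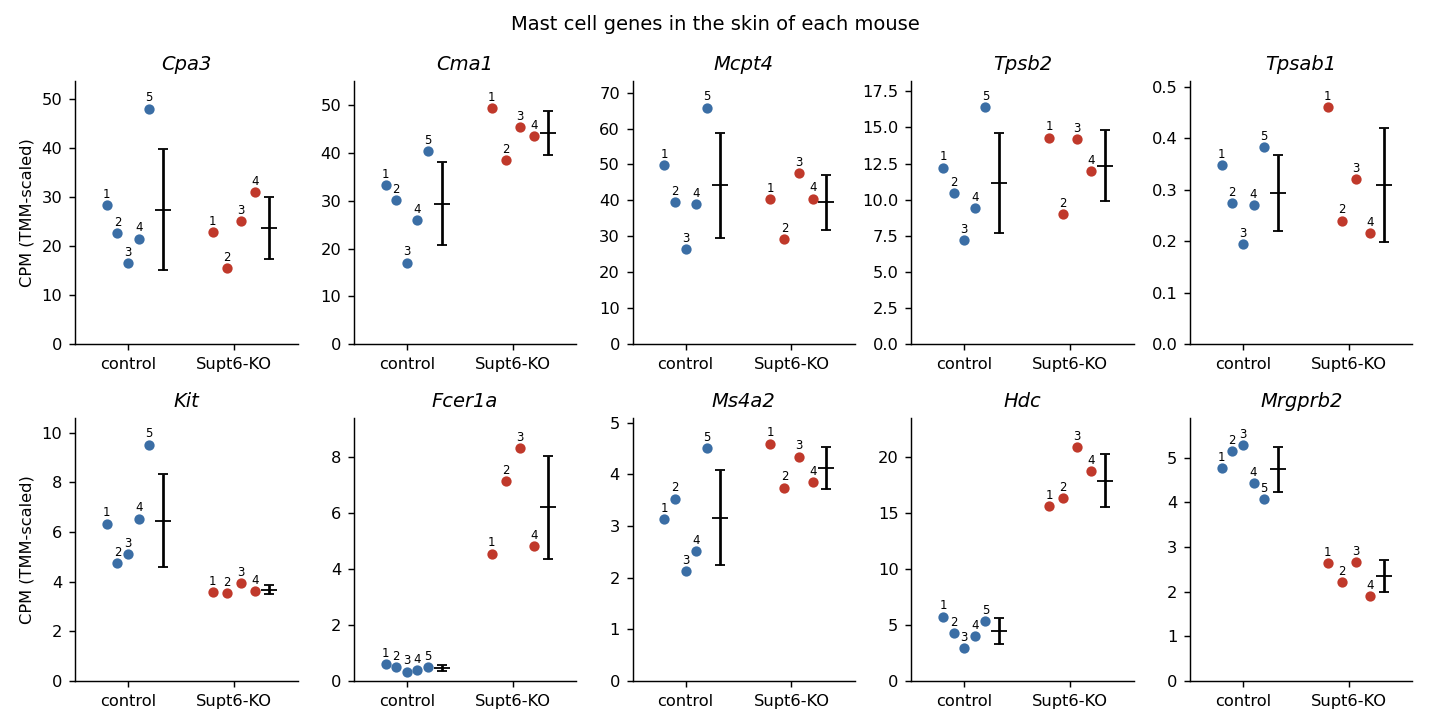
CPM with TMM scaling (vertical axes, linear from 0) of each of the 10 mast cell genes in 5 control mice (blue) and 4 Supt6-KO mice (red). Points are mice, labelled with their replicate numbers, and bars give the mean and SD. The groups are apart for Kit, Fcer1a, Hdc and Mrgprb2 and overlap for the other 6 genes.

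The granule proteases *Mcpt4*, *Cma1*, *Cpa3* and *Tpsb2* were the most abundant of the set. Their levels can be compared between genes only per length, for which the authors' TPM, which are scaled to transcript length, of the 5 controls were used. The order was *Mcpt4* at 108 ± 49.0 TPM (SD, n = 5), *Cma1* at 62.2 ± 24.8, *Cpa3* at 40.1 ± 23.5, *Tpsb2* at 23.7 ± 10.2, *Mrgprb2* at 4.25 ± 0.132, *Hdc* at 3.46 ± 1.16, *Kit* at 2.18 ± 0.930, *Ms4a2* at 2.17 ± 0.853, *Fcer1a* at 1.05 ± 0.297 and *Tpsab1* at 0.548 ± 0.196 TPM. The ranges of neighbours in this order overlapped between mice, except at the step from *Tpsb2*, at least 13.5 TPM, to *Mrgprb2*, at most 4.38 TPM. Within each control, however, *Mcpt4* was above *Cma1*, *Cma1* above *Cpa3* and *Cpa3* above *Tpsb2*. *Hdc* was likewise above *Kit*, *Ms4a2* above *Fcer1a* and *Fcer1a* above *Tpsab1* in each control. *Mrgprb2* and *Hdc* changed places between controls, and so did *Kit* and *Ms4a2*. In the only *Supt6*-KO mouse with TPM values, replicate 4, *Hdc* stood at 7.18 TPM and *Fcer1a* at 5.51 TPM, above *Ms4a2* at 1.26 TPM and *Mrgprb2* at 0.86 TPM.

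*Cpa3* (NCBI gene 12873, chromosome 3, 20215616 to 20242209 in GRCm38) encodes carboxypeptidase A3, a metalloprotease that trims peptides in the granule. It had 28.4, 22.7, 16.5, 21.6 and 48.1 CPM in the 5 controls and 22.9, 15.6, 25.2 and 31.0 CPM in the 4 *Supt6*-KO mice. The groups overlapped, and control 5 was the highest mouse. The log2 fold change was -0.21 (SE 0.29, edgeR adjusted p = 0.53) and -0.89 with library totals (adjusted p = 0.038). Without control 5 it was 0.09 on the TMM scale. The span of *Cpa3* overlaps 3 other annotated genes, and whether counting used the strand is not stated.

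*Mcpt4* (NCBI gene 17227, chromosome 14, 56059744 to 56062310) encodes the chymase mMCP-4, which is held to be the mouse counterpart of human chymase in function. It stood at 49.9, 39.6, 26.6, 38.9 and 65.8 CPM in controls and at 40.3, 29.3, 47.6 and 40.5 CPM in *Supt6*-KO mice, so the *Supt6*-KO mice lay within the range of the controls. The log2 fold change was -0.16 (SE 0.23, edgeR adjusted p = 0.55) with TMM, 0.03 without control 5, and -0.86 with library totals (adjusted p = 0.014).

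*Cma1* (NCBI gene 17228, chromosome 14, 55941451 to 55944675) encodes mMCP-5, the other abundant protease of the same gene cluster, which in mice acts as an elastase. It stood at 33.2, 30.1, 17.1, 26.0 and 40.5 CPM in controls and at 49.4, 38.5, 45.4 and 43.5 CPM in *Supt6*-KO mice. *Supt6*-KO replicates 1, 3 and 4 were above every control and replicate 2 was below control 5. *Cma1* rose by TMM scaling, with a log2 fold change of 0.59 (SE 0.21, edgeR adjusted p = 0.023), and had a log2 fold change of -0.11 with library totals (adjusted p = 0.69). The call was lost without control 4 (adjusted p = 0.052), without *Supt6*-KO replicate 1 (adjusted p = 0.062) and without *Supt6*-KO replicate 3 (adjusted p = 0.053).

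The tryptases gave no call on either scale. *Tpsb2* (NCBI gene 17229, chromosome 17, 25366308 to 25368096), the heparin-bound tryptase mMCP-6, stood at 12.2, 10.4, 7.23, 9.44 and 16.4 CPM in controls and at 14.3, 9.02, 14.2 and 11.96 CPM in *Supt6*-KO mice, with a log2 fold change of 0.15 (SE 0.23, edgeR adjusted p = 0.58) and -0.55 with library totals (adjusted p = 0.085). *Tpsab1* (NCBI gene 100503895, chromosome 17, 25343245 to 25345562), a related tryptase that some inbred mouse strains lack, was barely covered, with 13, 10, 7, 10 and 15 counts in controls and 11, 5, 7 and 6 counts in *Supt6*-KO mice. A difference in *Tpsab1* was not detected with TMM (log2 fold change 0.07, SE 0.36, edgeR adjusted p = 0.88) or with library totals (-0.63, SE 0.37, edgeR adjusted p = 0.14). Reads of near-identical genes can be split in such counts. No 100-base stretch of the longest *Tpsb2* or *Tpsab1* transcript occurred in another gene, 0.1% of those of *Mcpt4* occurred in *Cma2* and 0.6% of those of *Ms4a2* in *Ms4a4b*, and the other 6 genes shared none.

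The IgE receptor chains diverged. *Fcer1a* (NCBI gene 14125, chromosome 1, 173221269 to 173227232) encodes the α chain, which binds IgE. It was counted 23, 18, 12, 14 and 19 times in controls and 109, 149, 182 and 134 times in *Supt6*-KO mice, and every *Supt6*-KO mouse was above every control. *Fcer1a* thus rose 13.4-fold, from 0.461 ± 0.110 CPM (SD, n = 5) in controls to 6.21 ± 1.83 CPM (SD, n = 4), or by 3.74 in log2 (SE 0.26, edgeR adjusted p = 7.5e-07). The two-sided exact permutation test gave p = 0.0159, the smallest value that 5 mice against 4 allow. With library totals the log2 fold change was 3.01 (edgeR adjusted p = 1.4e-06). Every *Supt6*-KO mouse stood above every control for 28.9% of all genes tested.

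*Ms4a2* (NCBI gene 14126, chromosome 19, 11615517 to 11623790) encodes the β chain of the receptor, which amplifies its signal. It was counted 117, 129, 77, 93 and 177 times in controls and 110, 78, 95 and 107 times in *Supt6*-KO mice. In CPM this was 3.16 ± 0.925 (SD, n = 5) against 4.13 ± 0.407 (SD, n = 4), and the groups overlapped. The log2 fold change was 0.38 (SE 0.22, edgeR adjusted p = 0.14) with TMM, and -0.32 with library totals (adjusted p = 0.27). Without control 5 it was 0.55 and was called (edgeR adjusted p = 0.031). Within a library, *Fcer1a* was higher relative to *Ms4a2* in every *Supt6*-KO mouse than in any control. The γ chain gene *Fcer1g*, which other leukocytes share, rose from 11.7 to 22.8 CPM on average, with a log2 fold change of 0.96 (edgeR adjusted p = 6.8e-05), and did not pass with library totals (0.27).

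*Hdc* (NCBI gene 15186, chromosome 2, 126593659 to 126624025) encodes histidine decarboxylase, the enzyme that makes histamine. It stood at 5.75, 4.298, 2.93, 3.98 and 5.37 CPM in controls and at 15.6, 16.3, 20.9 and 18.8 CPM in *Supt6*-KO mice, well apart. *Hdc* rose 4.0-fold, with a log2 fold change of 2.0 (SE 0.20, edgeR adjusted p = 5.7e-06), and 1.3 with library totals (adjusted p = 0.00032). With each mouse left out in turn, it stayed between 1.88 and 2.11.

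*Kit* (NCBI gene 16590, chromosome 5, 75574987 to 75656722) encodes the receptor for stem cell factor. It stood at 6.34, 4.76, 5.12, 6.55 and 9.52 CPM in controls and at 3.59, 3.55, 3.93 and 3.63 CPM in *Supt6*-KO mice. The *Supt6*-KO mice lay close together and below every control, which was the case for 31.8% of all genes tested. *Kit* fell by 0.81 on the log2 scale (SE 0.21, edgeR adjusted p = 0.0051), and by 1.52 with library totals (adjusted p = 0.0002). *Mrgprb2* (NCBI gene 243979, chromosome 7, 48550965 to 48558086), a receptor for cationic peptides and drugs on connective tissue mast cells, stood at 4.76, 5.15, 5.29, 4.44 and 4.07 CPM in controls and at 2.63, 2.21, 2.65 and 1.90 CPM in *Supt6*-KO mice. It fell by 1.01 on the log2 scale (SE 0.18, edgeR adjusted p = 0.00032), and by 1.72 with library totals (adjusted p = 6.9e-06).

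Fold changes in these libraries went with transcript length. Among the genes tested, the shortest of 10 equal classes by median transcript length had a median of 0.53 (log2 fold change), and the longest class, to which *Kit* belongs with 5227.5 bases, had a median of -0.96. *Cma1*, with 1082 bases, belongs to a class with a median of 0.57, close to its own 0.59. When the trend with length was taken into the fit, an alternative chosen after the data were seen, *Kit* had a log2 fold change of 0.02 (edgeR adjusted p = 0.93) and *Cma1* of 0.20 (adjusted p = 0.4), so neither was called. *Fcer1a* (3.39, edgeR adjusted p = 1.2e-06) and *Hdc* (2.15, adjusted p = 3.8e-06) stayed higher and *Mrgprb2* (-0.84, adjusted p = 0.0013) stayed lower. With this correction 2 of the 10 genes were higher, against 37.0% of all genes, and 1 was lower, against 30.6%.

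**Figure D2:**
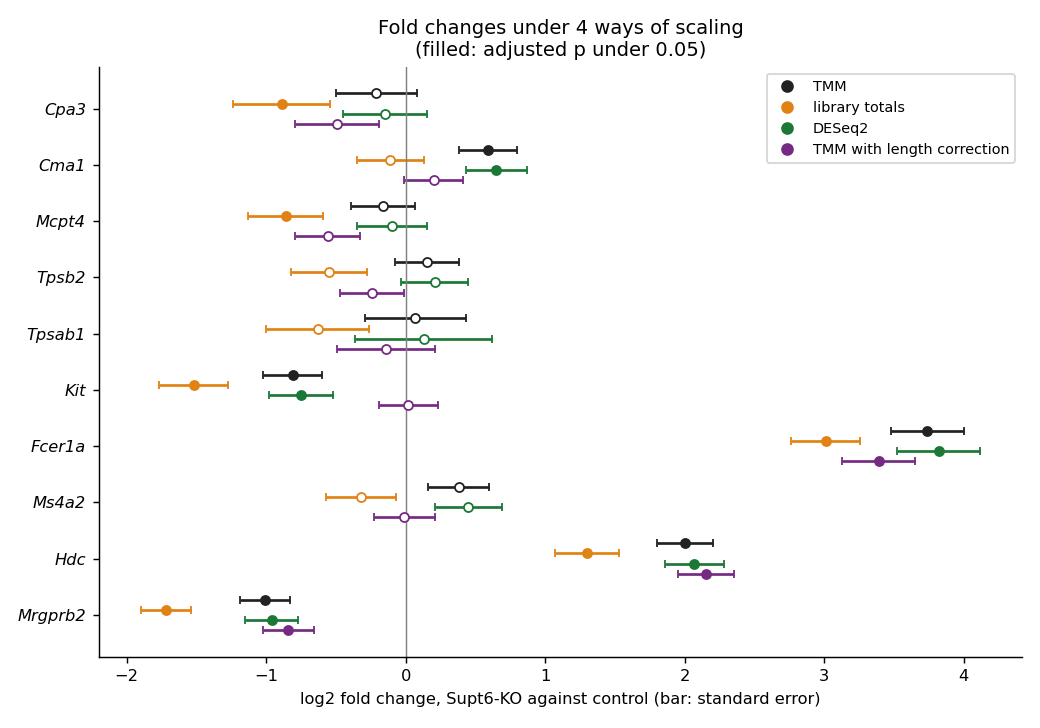
Log2 fold change of each mast cell gene (horizontal axis, Supt6-KO against control) with its standard error, under TMM, library totals, DESeq2 and TMM with a correction for transcript length. Filled points passed an adjusted p under 0.05. Fcer1a and Hdc lie above 0 and Mrgprb2 below 0 on all 4 scales, whereas Cma1, Tpsb2, Tpsab1 and Ms4a2 lie on both sides of 0, and Kit reaches 0.02 with the length correction.

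The ratio of 2 genes within a library does not depend on the scaling. It is not corrected for transcript length, which differs between *Kit* (5227.5 bases) and *Cma1* (1082 bases). Counts were divided by those of *Cma1*, a reference chosen after its values were seen. *Mcpt4* had 1.31 to 1.63 counts per count of *Cma1* in the controls and 0.762 to 1.05 in the *Supt6*-KO mice. For *Cpa3* the ratio was 0.754 to 1.19 against 0.405 to 0.713, and for *Tpsb2* it was 0.346 to 0.423 against 0.234 to 0.312. Relative to *Cma1*, then, the other 3 main protease genes were lower in every *Supt6*-KO mouse than in any control, and so were *Kit* and *Mrgprb2*. The ratios of *Cpa3* to *Mcpt4* and to *Tpsb2* overlapped between the groups. Relative to *Tpsb2*, *Mcpt4* was lower in every *Supt6*-KO mouse than in any control. *Fcer1a* had 0.0120 to 0.0195 counts per count of *Cma1* in controls and 0.0923 to 0.186 in *Supt6*-KO mice, and *Hdc* had 0.133 to 0.173 and 0.317 to 0.460. *Tpsab1* and *Ms4a2* overlapped, the latter at 0.0941 to 0.125 against 0.0884 to 0.0973. Over all other genes tested, the ratio to *Cma1* was below every control in 39.8% and above every control in 4.97%.

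**Figure D3:**
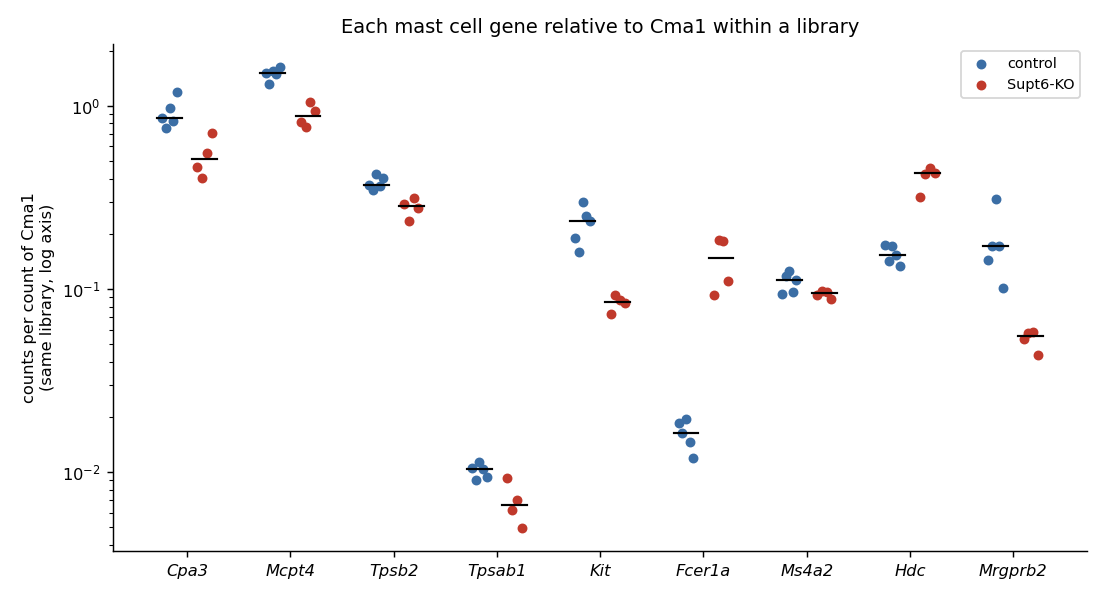
Counts of 9 mast cell genes per count of Cma1 in the same library (vertical axis, log scale), in 5 control mice (blue) and 4 Supt6-KO mice (red), with group medians as black lines. The median of Mcpt4 goes from 1.5 to 0.875 and that of Fcer1a from 0.0164 to 0.147, and Ms4a2 and Tpsab1 overlap.

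Among the controls, the proteases shared their highest and their lowest mouse. Control 5 had the highest and control 3 the lowest CPM of *Cpa3*, *Cma1*, *Mcpt4*, *Tpsb2*, *Tpsab1* and *Ms4a2*, with control 5 2.92-fold above control 3 for *Cpa3* and 2.37-fold for *Cma1*. The same mice were the highest and lowest controls for the summed fibroblast genes (11920 against 3479 CPM), endothelial genes (158 against 73.9 CPM), macrophage genes (289 against 113 CPM), nerve genes (684.6 against 485.2 CPM), melanocyte genes (74.3 against 51.2 CPM) and cartilage genes (1143 against 524.8 CPM), and the part of these cells in the order was not tested. Other lists ran the other way, with control 3 the highest and control 5 the lowest for the summed T cell genes (40.0 and 29.5 CPM), and control 5 the lowest for the adipocyte and keratinocyte genes. *Mrgprb2* did not share this order. Control 3 was its highest and control 5 its lowest control, and they differed 1.298-fold. *Supt6*-KO replicate 2 was the lowest of its group for *Cpa3*, *Cma1*, *Mcpt4*, *Tpsb2*, *Kit* and *Ms4a2*. Between the groups, the summed CPM of the 10 genes was 83.4 to 195 (median 121) in controls and 125.6 to 173 (median 159) in *Supt6*-KO mice, and overlapped. With library totals it was 101.6 to 256.5 (median 145.4) and 84.6 to 145.7 (median 122.8), so the order of the medians depends on the scaling.

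The 5 genes whose profile over the 9 mice lay closest to the mean profile of the 9 mast cell genes with at least 1 CPM were *Sash3*, *Tnfrsf1b*, *Lyn*, *Lrrc25* and *Prrx2*, out of 13555 genes ranked. Their root-mean-square distances were 0.105, 0.107, 0.123, 0.134 and 0.141 on the log2(CPM + 1) scale. *Fcer1a*, with 0.461 CPM in controls, enters the mean profile only through its level in *Supt6*-KO mice. The mean profile pools genes that moved in opposite directions, and none of the 5 passed the test between groups, with log2 fold changes of 0.22 to 0.46.

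Beyond the 10 genes, a list of 28 others that mast cells express was examined, of which 26 were tested. Of these, 10 were higher and 11 lower (34.1% and 36.8% of all genes), and the median log2 fold change was 0.01. With library totals 5 were higher and 13 lower (16.9% and 54.6% of all genes). *Mcpt1*, *Mcpt2* and *Cma2*, among the higher genes with TMM, had under 10 counts in all controls together and passed the filter only through the *Supt6*-KO mice, so the count is a description. With the length correction 7 of the 26 were lower, where 30.6% of all genes were lower in that fit. Serglycin, *Srgn*, the proteoglycan core that holds granule proteases, rose from 12.8 to 86.5 CPM on average, with a log2 fold change of 2.76 (edgeR adjusted p = 4.5e-07). The list is not limited to genes of mast cells alone, and the part of other leukocytes in the rise of *Srgn* was not tested. *Mcpt2*, a protease of mucosal mast cells, had 3, 0, 0, 0 and 0 counts in controls against 13, 11, 5 and 1, and *Mcpt1*, of the same kind, had 0, 0, 0, 0 and 2 against 11, 0, 4 and 1, so both calls rest on few counts. *Alox5*, the 5-lipoxygenase of leukotriene synthesis, fell from 20.4 to 2.36 CPM, with a log2 fold change of -3.11 (edgeR adjusted p = 1.4e-07). *Gata2*, a transcription factor that mast cells need, fell by 0.86 on the log2 scale (edgeR adjusted p = 0.0047). *Slc18a2*, the vesicle transporter that loads histamine, rose by 0.46 (edgeR adjusted p = 0.038) and had a log2 fold change of -0.25 with library totals. *Il1rl1*, the receptor for IL-33, rose by 0.89 (edgeR adjusted p = 0.0034) and had 0.21 with library totals.

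Of 20 genes that carry signals from FcεRI and Kit, 3 were higher and 12 lower with TMM (34.1% and 36.8% of all genes), with a median log2 fold change of -0.72. With library totals 1 was higher and 16 were lower (16.9% and 54.6% of all genes), and these all-gene shares stand behind the counts of the lists that follow. The values of this list and of the lists that follow were not corrected for transcript length. Other leukocytes and, for some of the 20 genes, keratinocytes use them too. The adaptors *Gab2* and *Grap2* fell by 2.22 and 2.09 on the log2 scale (edgeR adjusted p = 5.6e-06 and 0.00035), and *Plcg1*, a phospholipase, fell by 1.81 (adjusted p = 4.7e-06). *Lat2*, an adaptor of mast cells and other leukocytes, rose by 1.73 (edgeR adjusted p = 9e-05). *Lyn* and *Syk*, the kinases next to the receptor, did not pass with TMM, with log2 fold changes of 0.22 and -0.13. With library totals *Syk* was lower (-0.8, edgeR adjusted p = 0.013) and *Lyn* did not pass (-0.47, edgeR adjusted p = 0.079).

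Of the ligands that act on mast cells, 10 of 13 were tested, and 4 were higher and 1 was lower (34.1% and 36.8% of all genes), with a median log2 fold change of 0.80. With library totals 4 were higher and 2 lower. The stem cell factor gene *Kitl* averaged 27.6 CPM in control and 28.5 CPM in *Supt6*-KO skin (log2 fold change 0.05, edgeR adjusted p = 0.73) and was lower with library totals (-0.65). *Tslp*, an epithelial cytokine, rose by 3.79 on the log2 scale (edgeR adjusted p = 1.4e-05) and *Il6*, a cytokine of inflammation, by 4.68 (adjusted p = 2.4e-05). Both were highest in *Supt6*-KO replicate 4, where *Tslp* stood at 29.4 CPM against 6.85, 10.5 and 11.2 CPM in the rest of the group and *Il6* at 4.96 against 2.09, 2.59 and 1.74 CPM. *Il33*, an alarmin that acts through *Il1rl1*, stood at 67.2, 70.5, 70.9, 67.8 and 46.8 CPM in controls and at 75.9, 48.1, 76.2 and 401 CPM in *Supt6*-KO mice, so its mean rested on replicate 4 (log2 fold change 1.22, edgeR adjusted p = 0.053). *Il4*, which basophils make as well, was at 0 in every control and had 17, 19, 9 and 31 counts in the *Supt6*-KO group, through which alone it passed the filter and was called higher.

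In the histamine pathway, 2 of 8 genes tested were higher (*Hdc* and *Slc18a2*) and 1 was lower (1 and 2 with library totals). The lower gene with TMM was *Slc22a3*, a transporter that can clear histamine, which fell by 2.81 on the log2 scale (edgeR adjusted p = 3.1e-05). *Hnmt*, the methyltransferase that breaks histamine down, stood at 9.65 and 10.1 CPM on average and did not pass with TMM (log2 fold change 0.06), and was lower with library totals (-0.68, edgeR adjusted p = 0.017). The receptor genes *Hrh1*, *Hrh2* and *Hrh4* did not pass, and *Hrh3* had 5 counts in all and was not tested. Of 9 genes for heparin and its core protein, 2 were higher and 5 lower (1 and 7 with library totals), with *Ndst2*, the sulfotransferase that mast cell heparin requires, at -0.62 (edgeR adjusted p = 0.0013) and *Xylt1*, which starts the sugar chain, at -3.66 (adjusted p = 2.7e-05). The sulfotransferase genes *Ndst1* and *Hs6st1*, which most cells use, were at -1.66 and -1.60. Of 9 prostaglandin and leukotriene genes, 3 were higher, among them *Ptgs2* at 3.79 and *Ptges* at 1.38, 3 were lower, among them *Alox5* and *Ltc4s*, and 2 and 6 were higher and lower with library totals. *Ptgs2* was highest in *Supt6*-KO replicate 4, at 48.9 CPM against 11.5, 18.1 and 15.5 in the other *Supt6*-KO mice. *Hpgds*, the synthase of prostaglandin D2, stood at 23.6 and 23.2 CPM (log2 fold change -0.02, edgeR adjusted p = 0.93). It was lower with library totals (-0.69, edgeR adjusted p = 0.028).

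Markers of other cells that share some of these genes moved in the same libraries. Of 7 basophil genes, 5 were higher and 1 was lower with TMM, where 34.1% and 36.8% of all genes were, and 3 and 1 with library totals (16.9% and 54.6%). *Mcpt8*, *Prss34* and *Il4*, which are among the higher genes, had under 10 counts in all controls together and passed the filter only through the *Supt6*-KO mice, so these counts are a description. *Mcpt8*, a protease that in mice defines basophils, had 0, 0, 0, 0 and 3 counts in controls against 67, 55, 38 and 107. *Prss34*, also a basophil protease, had 0, 0, 0, 1 and 0 counts against 3, 11, 11 and 10. The summed level of the basophil list overlapped between the groups, with 11.5 to 16.4 CPM among controls and 10.3 to 13.3 CPM among *Supt6*-KO mice. Its most abundant gene was *Itga2*, which keratinocytes also make and which fell from 12.9 to 4.81 CPM on average. Of 12 neutrophil genes 11 were higher, and their summed level went from 24.8 to 55.3 CPM in controls to 2537 to 6485 CPM in *Supt6*-KO mice, most of it *S100a9* and *S100a8*, which keratinocytes can also make. The granulocyte receptor *Csf3r* rose from 0.496 to 8.47 CPM on average. *Ltf*, a granule protein of neutrophils, was at 0 in every control, and it, *Ngp*, *Ly6g* and *Cxcr1* passed the filter only through the *Supt6*-KO mice. No basophil or neutrophil gene of the lists was at 0 in every mouse. The part of basophils or neutrophils in the rise of *Fcer1a* and *Hdc* was not tested.

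Of 10 melanocyte genes, 6 were higher and 1 was lower with TMM, against 34.1% and 36.8% of all genes, and 3 and 2 with library totals (16.9% and 54.6%). The pigment enzyme genes *Dct* and *Tyr* rose by 1.63 and 2.27 on the log2 scale, *Sox10* fell by 2.50, and the summed level was 51.2 to 74.3 CPM among controls and 103 to 183 CPM among *Supt6*-KO mice, while *Kit* was lower. With library totals the sums overlapped, at 62.4 to 97.7 and 80.4 to 143.8 CPM. *Dct* was the most abundant of them. The part of melanocytes in the level of *Kit* was not tested. Of 5 eosinophil genes, the peroxidase *Epx* had 2 counts in all 9 mice and *Prg2* had 10, and 1 of the 4 tested, *Ccr3*, was higher, with 0, 0, 1, 0 and 0 counts in controls and 10, 2, 4 and 26 in *Supt6*-KO mice, through which alone it passed the filter.

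The mast cell genes were also set against other cells of the skin. Dermal fibroblast genes were lower in 7 of 11 cases (median log2 fold change -0.96), endothelial genes in 7 of 9 (-1.08), peripheral nerve genes in 8 of 8 (-1.60) and adipocyte genes in 4 of 7 (-1.18), where 36.8% of all genes were lower. The fibroblast gene *Fbln1* and the endothelial gene *Egfl7* were higher. With library totals 10, 8, 8 and 6 genes of these lists were lower and none was higher, where 54.6% of all genes were lower. The summed CPM of the 10 mast cell genes, divided by that of the fibroblast list in the same library, was 0.0164 to 0.0266 in controls and 0.0391 to 0.0721 in *Supt6*-KO mice. Divided by the endothelial list it was 0.917 to 1.25 against 1.75 to 2.64, and by the nerve list 0.172 to 0.285 against 0.713 to 1.02. Divided by the macrophage list it was 0.650 to 0.790 in controls and lower, at 0.478 to 0.603, in *Supt6*-KO mice. In none of these 4 ratios did the groups overlap, and none depends on the scaling. No ratio to a list was corrected for transcript length, with which fold changes went, and the part of length in them was not tested. No share over all genes was computed for such ratios, so they are a description. Ratios to the melanocyte list (1.628 to 2.625 against 0.8045 to 1.537) and the neutrophil list (1.732 to 7.043 against 0.0242 to 0.0631) were lower in *Supt6*-KO mice without overlap. Those to the T cell, muscle and cartilage lists were higher without overlap. Against the adipocyte and keratinocyte lists the groups overlapped, at 0.190 to 0.751 against 0.360 to 0.478 and at 0.00266 to 0.00655 against 0.00239 to 0.00406. Of the remaining lists, 8 of 9 muscle genes were lower and none was higher. Of 8 T cell genes 1 was higher and 3 were lower (1 and 5 with library totals), and of 10 macrophage genes 6 were higher and 2 lower (2 and 2 with library totals). The most abundant genes by mean CPM over the 9 mice were *Col3a1* for fibroblasts, *Pecam1* for endothelium, *Pmp22* for nerve, *Fabp4* for adipocytes, *Acta1* for muscle, *Cd3g* for T cells, *Mrc1* for macrophages and *Krt10* for keratinocytes.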

How the data were processed

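Reads had been aligned by the authors with Bowtie2 2.3.4.3 (mm10), who made the deposited estimated counts per gene with RSEM 1.3.1, without normalization between mice. HISAT and DESeq2 1.4.5 are also named in the submitters' processing notes. The authors deposited TPM for 6 of the 9 mice, used here only to order levels between genes. The annotation release and strand setting are not given in the sources used here. About 9.0% of the estimated counts were not whole, and all were rounded. Of the identifiers, 17910 matched a RefSeq gene of GRCm38.

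Genes with under 10 counts over the 9 mice were left out. The groups were compared with edgeR 4.0.16 (R 4.3.3), TMM factors and the quasi-likelihood test without covariates, with p-values adjusted over every tested gene (Benjamini-Hochberg), and called at an adjusted p under 0.05. The standard error is the absolute log2 fold change divided by the square root of F. Permutation tests used log2(CPM + 1). The alternatives were DESeq2 1.42.0, other factors and filters, a replicate block, each mouse left out and, added later, a length correction. The fits were tested on simulated data. The simulated rises and falls were balanced and had no trend with length, so the choice of scaling was not tested there. The members and lists were chosen with earlier results of these data known. All 10 members, *Supt6*, the 4 largest called changes of each mast cell list, genes at 0, the most abundant gene of each cell type list and the 5 nearest profiles are named by rule. Other named genes were chosen after their values were seen, and 1 gene that the rule names is not reported here.

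Batches are not given in the sources used here. Depth was about the same in all mice, and a count of 0 allows up to 3, which covers counting error only.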

Additional observations from a re-analysis of the deposited data

Results flagged for a closer look

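The 10 genes and the summed lists made 60 groups of mice, of which 3 had 1 mouse far from the others, where chance gives about 1 in 20 groups. All 3 were lists in *Supt6*-KO replicate 4. The summed level of the ligands that act on mast cells was 562.7 CPM in that mouse (group median 184), most of it *Il33*. The summed peripheral nerve genes stood at 156.8 CPM (median 175) and the summed keratinocyte genes at 39410 CPM (median 52360). The TMM factor of that mouse was 0.91, against 0.674 to 0.781 in the rest of its group. With library totals its nerve genes, at 142.7 CPM, were the highest of the group, and its keratinocyte genes, at 35850 CPM, lay inside the range of the group. None of the 10 mast cell genes had such a mouse in either group.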

How the results depend on the processing

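With library totals 2771 genes were higher (5608 with TMM) and 8970 lower (6050 with TMM), and 4 of the 10 mast cell genes were lower (2 with TMM). The log2 fold changes of *Cma1*, *Tpsb2*, *Tpsab1* and *Ms4a2* turned to -0.11, -0.55, -0.63 and -0.32. With the length correction 1 mast cell gene and 7 of the other mast cell genes were lower (2 and 11 without it). Of all genes, 30.6% were lower with it and 36.8% without it. *Tpsb2*, *Tpsab1*, *Kit* and *Ms4a2* had log2 fold changes of -0.24, -0.14, 0.02 and -0.01 with the length correction. *Tpsab1* was at -0.02 with upper-quartile factors. *Fcer1a*, *Hdc* and *Mrgprb2* kept their direction and their call in all 18 alternatives, from 3.01 to 3.86, 1.3 to 2.15 and -1.72 to -0.84.

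In the 9 fits that each left out a mouse, the log2 fold change was -0.38 to 0.09 for *Cpa3*, -0.30 to 0.03 for *Mcpt4* and -0.19 to 0.21 for *Tpsab1*, and *Kit* stayed between -0.90 and -0.63. Of the 10 genes, 2 to 4 were higher and 2 lower in these fits.

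For same-numbered mice, the deviations from the group means correlated at 0.021, 0.261, 0.265 and 0.089, not over 0.1 in every pair, so the numbers were not taken as pairs. With the replicate block *Cpa3* was at 0.07, *Mcpt4* at 0.04 and *Ms4a2* at 0.57, which passed (edgeR adjusted p = 0.044), and 4 genes were higher and 2 lower.

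Low counts limit *Tpsab1*, *Mcpt1*, *Mcpt2* and *Prss34*. Held at the bound that 3 counts per control library allow, *Ltf* brought the neutrophil median from 4.81 to 4.32.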
